A study of Homo sapiens with 6 samples.

Results

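Genes for the proteins of the mitochondrial ribosome were taken by symbol alone: MRPL or MRPS, then a number and at most 1 further letter. The rule found 78 of the 22091 genes in the count tables, 49 MRPL genes and 29 MRPS genes, and no measured value entered the choice. They were read by RNA sequencing of MHCC97L, MHCC97H and HCCLM3, related human hepatocellular carcinoma cell lines; as background, the MHCC97 pair are sublines of a common parent chosen for low and high spread in mice, and HCCLM3 was derived from MHCC97H. Each line was sequenced once untreated (control) and once after 4 h with 2.5 ng/mL of the cytokine TGF-β1, so a condition holds 3 libraries, 1 per line, and a line holds 2 libraries, 1 per condition. All 6 groups shared the same serum-containing medium, and the labels name no genetic change in any of them. The labels leave unsaid whether separate cultures were used within a line, so p-values measure only the spread between these libraries, which may in part be technical.

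As background, the mitochondrial ribosome is built inside the organelle from RNAs encoded by mitochondrial DNA and from proteins encoded in the nucleus, made in the cytosol and imported. It translates only the few mitochondrially encoded mRNAs, whose products are membrane-embedded subunits of the respiratory chain and of ATP synthase. The large subunit (MRPL genes) forms peptide bonds and feeds the new chain into the inner membrane, and the small subunit (MRPS genes) holds the mRNA. Liver cells are rich in mitochondria and depend on this translation. Subunits are assigned here by symbol, although the products of MRPS30 and MRPS18A sit in the large subunit in known structures. RefSeq now lists MRPS36 as KGD4, a subunit of the oxoglutarate dehydrogenase complex.

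The libraries held 18485041 to 23242862 counts, and the 78 genes together took 0.392% to 0.496% of them. All 78 were among the 14176 genes tested. Expected counts were whole numbers in every library for 36 of the 78 and had decimals for the other 42, which can arise when reads are divided among genes. On the annotation, 31 of the 78 share exonic bases with another gene in the count tables, and reads there cannot be assigned without knowing how strand was counted. The hepatocyte and carcinoma label was checked with marker genes: TF, HNF4A, KRT8 and KRT18 reached at least 5 CPM (counts scaled by library size) in every library, TTR stayed under 1 CPM and GPC3 had no count in any library. ALB lay between 1.26 and 22.9 CPM and was lowest in HCCLM3. SERPINA1, FGB, APOB and APOA1 were under 1 CPM in both HCCLM3 libraries, whereas in the 4 MHCC97 libraries SERPINA1 lay between 28.5 and 114.2 CPM and FGB between 12.6 and 45.9. The whole list summed to 5965 to 7824 CPM in the controls and 6627 to 9473 CPM after TGF-β1, mostly KRT8 and KRT18. Several hepatocyte transcripts thus differed between the lines, and their part in the results below was not tested.

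Markers of other liver cell types were mixed. The leukocyte list summed to 115 to 264 CPM, mostly CD68 (109 to 246 CPM), with CD79A at 3.26 to 17.3 and PTPRC, CD163, CD3E and MARCO under 1 CPM in all 6 libraries. The endothelial list summed to 10.2 to 41.4 CPM, with PECAM1 at 5.91 to 31.0 and KDR at 2.52 to 10.5, while CDH5 and STAB2 were under 1. The stellate cell list summed to 10.8 to 34.4 CPM. In it LUM lay between 9.27 and 17.7, COL3A1 was at 14.4 and 11.7 in HCCLM3 and under 1 in the MHCC97 lines, and COL1A2, PDGFRB, ACTA2 and RGS5 were under 1 throughout. The cholangiocyte list summed to 582 to 937 CPM, with KRT19 at 469 to 743 and KRT7 at 96.1 to 338, and EPCAM was under 1. The part of these transcripts in the results was not tested.

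RefSeq promoter windows (GRCh38.p14, 250 bases before to 50 bases after the start) were found for 69 of the 78 genes, and 6 of them are shown in part because later results turn on these genes or because they carry the letters most frequent in the group. As background, the ETS factor GABPA, YY1 and NRF1 are known regulators of nuclear genes for mitochondrial proteins. The ETS letters CCGGAAG, read on either strand, stood in 29 of 69 windows (42%) against 14.4% of 15170 windows of protein-coding genes. The YY1 letters AAGATGGC stood in 20 of 69 (29%) against 4.01%, and 15 of the 21 matches lay after the start. The 10-base NRF1 string stood in 8 of 69 (11.6%) against 8.63%, and the overlapping core GCGCATGC in 6 (8.7%) against 4.28%. In 45 of 69 windows at least 1 of the ETS, YY1 and NRF1 strings was present. This was not counted over the coding windows, so it has no background share.

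Letters of factors known to act downstream of the ligand were also counted. The SMAD element GTCTAGAC was in 0 of 69 against 0.178% of coding windows. It is so rare in coding windows that its absence says little about the members, and no other SMAD letters were searched. The AP-1 letters TGANTCA were in 1 of 69 (1.45%) against 5.7%, a difference that was not tested. The SP/KLF letters GGGCGG were in 42 of 69 (60.9%) against 59.4%. A match describes letters only and is not a measured binding site. Below are the 150 bases before the RefSeq start, 5′ to 3′ on the gene's strand, with ETS matches in capitals for MRPL54 (chr19:3762532-3762681, plus strand) and MRPS34 (chr16:1773135-1773284, minus strand); CTTCCGG is the reverse complement of CCGGAAG. MRPL54 is shown because it had the largest fitted rise after TGF-β1 and MRPS34 because it was among the 3 highest in level per kilobase and holds 3 matches.
MRPL54: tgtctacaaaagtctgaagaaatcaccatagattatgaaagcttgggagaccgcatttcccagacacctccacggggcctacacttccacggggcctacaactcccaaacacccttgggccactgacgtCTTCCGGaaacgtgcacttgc
MRPS34: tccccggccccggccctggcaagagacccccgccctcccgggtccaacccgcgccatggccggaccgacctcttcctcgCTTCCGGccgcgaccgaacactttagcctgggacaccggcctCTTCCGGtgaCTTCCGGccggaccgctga
YY1 matches are in capitals for MRPL52 (chr14:22829737-22829886, plus strand), which also rose after TGF-β1, and matches to the NRF1 core and full string for MRPL17 (chr11:6683341-6683490, minus strand), the clearest carrier among those printed.
MRPL52: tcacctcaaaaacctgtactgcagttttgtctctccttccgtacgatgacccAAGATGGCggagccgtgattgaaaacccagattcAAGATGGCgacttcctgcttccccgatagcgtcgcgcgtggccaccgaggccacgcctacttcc
MRPL17: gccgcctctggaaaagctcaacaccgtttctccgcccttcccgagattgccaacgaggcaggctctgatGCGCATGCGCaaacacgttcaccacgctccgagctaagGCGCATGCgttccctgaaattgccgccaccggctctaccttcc
MRPS11 (chr15:88467558-88467707, plus strand) and MRPL46 (chr15:88467389-88467538, minus strand) start 320 bases apart and are transcribed away from each other. Neither printed stretch holds an ETS, YY1 or NRF1 string, but the MRPL46 window has a YY1 match outside the printed bases. They are shown because both were among the members lowest in HCCLM3.
MRPS11: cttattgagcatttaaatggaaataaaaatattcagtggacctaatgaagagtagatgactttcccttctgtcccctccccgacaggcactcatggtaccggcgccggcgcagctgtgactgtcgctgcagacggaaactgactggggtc
MRPL46: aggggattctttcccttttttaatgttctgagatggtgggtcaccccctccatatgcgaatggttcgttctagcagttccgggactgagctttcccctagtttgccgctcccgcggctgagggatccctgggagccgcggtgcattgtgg

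Such back-to-back starts were frequent in the group. A gene on the opposite strand started within 1 kb of 18 of the 69 members with a window (26.1%), against 10% of 15170 coding genes. The partners included FAU at MRPL49 (49 bases), the proteasome subunit PSMA2 at MRPL32 (202 bases) and SARS2, the mitochondrial seryl-tRNA synthetase, at MRPS12 (181 bases). MRPS11 and MRPL46 were the single pair in which both partners are members.

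Transcript levels spanned a wide range. Dividing the mean CPM of the 3 controls by the length of each gene's merged exons gave levels per kilobase with a median of 14.5 over the 78 genes, against 4.47 over the 13330 tested genes with a length, and 71 of the 78 lay above that median. The cytosolic ribosomal proteins had a median of 160.5 on the same scale. Large-subunit genes had a median of 15.1 CPM per kilobase and small-subunit genes 12.3, and 42 members lay within 2-fold of the median of all 78.

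The highest level per kilobase belonged to MRPL12, a protein of the mobile stalk that recruits translation factors. Its mean was 245 ± 66 CPM per kilobase (SD, n = 3 control lines). MRPL24, which lies near the exit of the peptide tunnel, had 146 ± 16.7, and MRPS34, a small-subunit protein without a bacterial counterpart, 111 ± 3.57. MRPL51 had 91.5 ± 6.28. MRPL9 (64.5 ± 6.44) and MRPL41 (61.7 ± 2.22) came next and differed from each other by less than the spread of MRPL9. At the bottom stood MRPL45 (0.696), the protein that anchors the ribosome to the inner membrane, then MRPS36 (1.85), MRPS31 (2.62), MRPS18B (3.003), MRPL46 (3.53) and MRPL22 (3.66). The order depends on the length used: with the median length of protein-coding transcripts MRPL51 (283) and MRPL24 (280.5) passed MRPL12 (245), MRPL46 had 22.45, 5 of the top 10 were shared, and the ranks of the 78 by both lengths correlated at 0.696 (Spearman, across genes). MRPL12 shares 701 exonic bases with the same-strand gene AC139530.2 in the tables, so its level is uncertain.

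**Figure D1:**
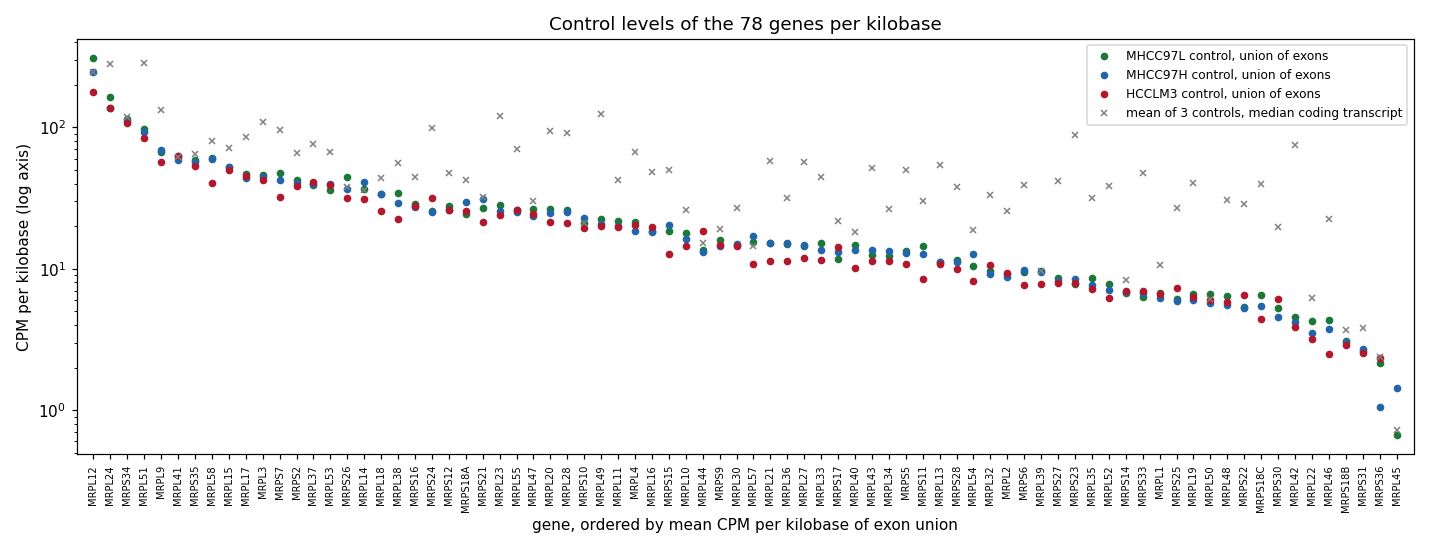
Level of each of the 78 genes in the 3 control libraries as CPM per kilobase of merged exons (coloured points, log axis), with crosses for the mean of the controls per kilobase of the median coding transcript. The genes run from MRPL12 at 245 to MRPL45 at 0.696, the crosses change the order, and the HCCLM3 control of MRPL45, at 0, cannot be drawn on the log axis.

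MRPL45 stands apart for another reason. Its expected counts were 26, 51 and 0 in the MHCC97L, MHCC97H and HCCLM3 controls and 33, 0 and 45 after TGF-β1, with decimals before rounding in part of the libraries. It was thus listed at 0 in 1 control and in 1 TGF-β1 library of different lines. RefSeq lists the pseudogenes MRPL45P1 and MRPL45P2, and whether reads were divided with them was not tested. Its own fold changes are not described, but counts and medians over all 78 genes, and the correlation with neighbouring genes, include it.

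The first question of the design is what TGF-β1 does within 4 h. In the fit with cell line and treatment as terms, 4 of the 78 genes rose and none fell: MRPL41, MRPL54, MRPL38 and MRPL52, all of the large subunit. That is 5.13% of the members, where 14.4% of all 14176 tested genes changed (7.79% higher and 6.65% lower), a higher share than among the members; the difference between the shares was not tested. The rises were 1.23-fold to 1.40-fold. Most members nevertheless leaned upward: the fitted difference was positive for 57 of 78, with a median of 0.08 on the log2 scale against -0.003 over all tested genes. At an unadjusted p under 0.05 there were 18 members (23.1%, against 30.5% of all tested genes), and 17 of them were higher (21.8%, against 15.6%).

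MRPL41, a large-subunit protein specific to mitochondria, measured 79.65, 74.6 and 79.2 CPM in the MHCC97L, MHCC97H and HCCLM3 controls and 104.6, 100.4 and 90.9 CPM after TGF-β1. Every TGF-β1 library lay above every control, and the fitted difference was 0.34 on the log2 scale (SE 0.072, 1.27-fold; edgeR quasi-likelihood, Benjamini-Hochberg adjusted p = 0.0175). MRPL54, another mitochondria-specific protein of that subunit, measured 10.6, 12.7 and 8.18 CPM in the same controls and 16.75, 16.8 and 10.51 CPM after the ligand. It was higher within each line, but the HCCLM3 TGF-β1 library lay below the MHCC97H control. Its difference of 0.48 (SE 0.106, 1.40-fold) had an adjusted p of 0.0192 in edgeR.

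MRPL38, a mitochondria-specific large-subunit protein, measured 126.2, 107.7 and 82.8 CPM in the MHCC97L, MHCC97H and HCCLM3 controls and 159.9, 150 and 88.3 CPM after TGF-β1. The rise was 0.34 and 0.48 on the log2 scale in the MHCC97 lines and 0.09 in HCCLM3, where the 95% counting interval of -0.007 to 0.19 includes 0. Its fitted difference was 0.31 (SE 0.083; edgeR adjusted p = 0.0401). MRPL52 measured 25.1, 22.6 and 19.8 CPM in the controls and 31.2, 26.3 and 25.7 CPM after the ligand. All its TGF-β1 libraries lay above all its controls, by a fitted 0.30 (SE 0.082; edgeR adjusted p = 0.0415).

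The next members by p did not pass the threshold. MRPL12 had a fitted difference of 0.25 (SE 0.072; edgeR adjusted p = 0.0525), with 319.7, 252.0 and 183.9 CPM in the controls and 386.0, 324.8 and 196.7 CPM after TGF-β1. MRPS24, a small-subunit protein at the mRNA entry, had 0.32 (SE 0.094; edgeR adjusted p = 0.0525), with 66.7, 66.1 and 82.1 CPM in the controls and 89.3, 93.8 and 84.45 CPM after the ligand. Nearly all of the MRPS24 difference came from the MHCC97 lines, where it was 0.42 and 0.50, against 0.04 in HCCLM3. MRPS24 shares exonic bases with the read-through gene URGCP-MRPS24, and the sources used here do not say how reads were divided between them.

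MRPL14, a large-subunit protein at the interface between the subunits, had 0.25 (SE 0.074; edgeR adjusted p = 0.0567), from 35.2, 39.4 and 29.8 CPM to 42.7, 48.5 and 33.4 CPM. MRPS25, of the small subunit, was the member with the smallest p among those lower, at -0.23 (SE 0.078; edgeR adjusted p = 0.0819), from 32.9, 31.6 and 39.2 CPM to 28.0, 25.3 and 35.4 CPM. Each had the same sign in all 3 lines, and in both the conditions overlapped across lines. No small-subunit gene passed in edgeR, where 5 of 29 had an unadjusted p under 0.05; limma-voom also called 0 and DESeq2 called 1. The large subunit gave 4 of 49 in edgeR, with 13 at an unadjusted p under 0.05.

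These calls rest on the spread of the response between lines, with 2 residual degrees of freedom per gene. The quasi-likelihood test moderates that spread with the spread of the other tested genes, so the p-values do not rest on each gene alone. Without the MHCC97L libraries edgeR called 0 members (3 at an unadjusted p under 0.05) and 4.29% of all tested genes, and without the MHCC97H libraries 1 member and 6.86% of all. Without the HCCLM3 libraries it called 21 members (26.9%), of which 20 were higher, and 27.7% of all tested genes. MRPL41 lost its call without MHCC97L or without MHCC97H, MRPL54 without MHCC97L and under DESeq2, and MRPL38 and MRPL52 without either MHCC97 line and under scaling by library totals or by the upper quartile (MRPL52 also under DESeq2 and with no count filter). With the cell line left out of the model none of the 4 passed. Scaling by library totals shifted the median of all genes by -0.053 and gave 2 members higher and 1 lower.

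**Figure D2:**
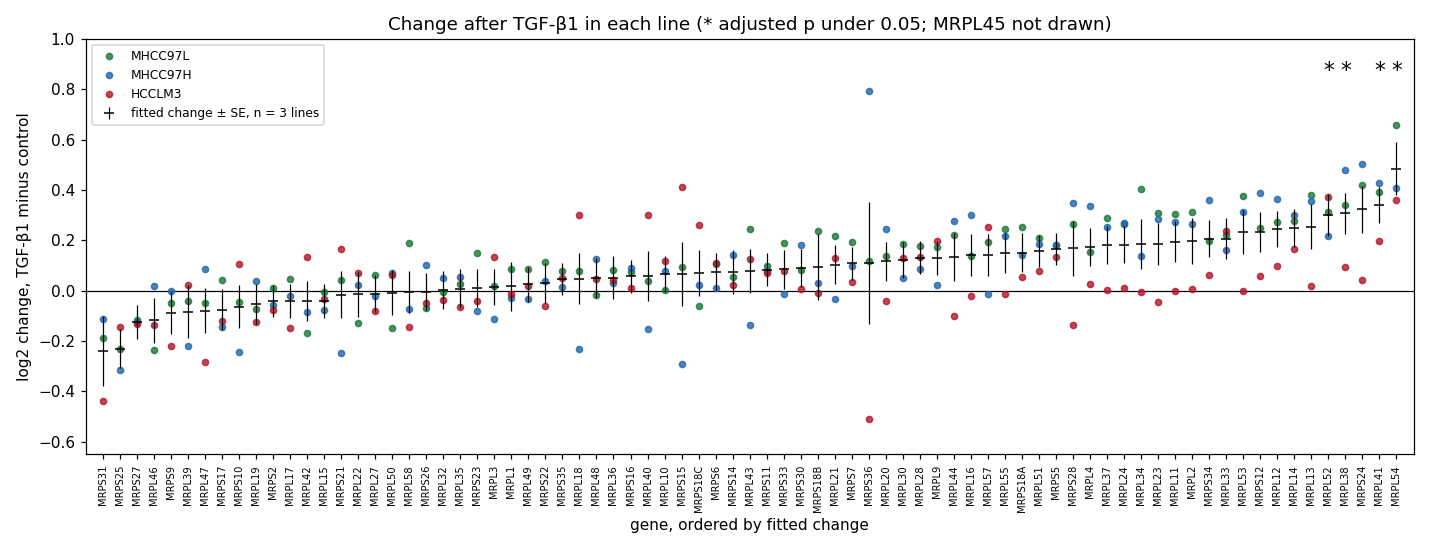
Change after TGF-β1 for 77 genes (log2 difference of CPM, TGF-β1 minus control), with 1 coloured point per line and the fitted difference ± SE in black; MRPL45 is not drawn. The 4 starred genes passed an adjusted p of 0.05, most fitted values lie above 0, and MRPS36 and MRPS15 show widely separated lines.

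Line by line, the members leaned upward most in MHCC97L and least in HCCLM3. Median changes were 0.13 in MHCC97L, 0.06 in MHCC97H and 0.02 in HCCLM3, against 0.007, -0.004 and -0.01 over all tested genes. The change was above 0 in 61, 52 and 48 of the 78 genes, and in 7220, 7025 and 6819 of the 14176 tested genes. Counting intervals lay wholly above 0 for 39, 28 and 18 members and wholly below 0 for 3, 9 and 6. They were not computed for all tested genes, so these counts have no background share. These intervals cover counting error only, and 1 library per line and condition allows no test within a line.

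In all 3 lines together, 30 of 78 members (38.5%) were higher after TGF-β1, where 24.8% of all tested genes were. The 5 members lower in all 3 lines (6.41%, against 25.6% of all tested genes) were MRPL15, MRPS9, MRPS25, MRPS27 and MRPS31, and none of them passed the test. Summed over the 78 genes, the level went from 4543 to 5084 CPM in MHCC97L (11.9% higher), from 4285 to 4707 CPM in MHCC97H (9.86%) and from 3907 to 4030 CPM in HCCLM3 (3.16%). The large-subunit sum was 13.8%, 12.05% and 3.74% higher in the 3 lines, and the small-subunit sum 8.10%, 5.68% and 2.06%. By library totals the summed changes were 8.47% and 6.98% in the MHCC97 lines and -1.63% in HCCLM3, so the sign in HCCLM3 depends on the scaling.

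The stalk and its base had unlike values among themselves, and the differences between these genes were not tested. MRPL12 differed by 0.27, 0.37 and 0.10 in MHCC97L, MHCC97H and HCCLM3. MRPL10, which anchors MRPL12, differed by 0.003, 0.08 and 0.12 (fitted 0.07; edgeR adjusted p = 0.577), and MRPL11, at the base of the stalk, by 0.31, 0.27 and -0.003 (fitted 0.19; edgeR adjusted p = 0.150). None of the 3 passed. The paralogs MRPS18A, MRPS18B and MRPS18C, alternative descendants of 1 bacterial protein, had fitted differences of 0.15, 0.09 and 0.07, again without a call (edgeR adjusted p = 0.228, 0.680 and 0.645).

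In the controls MRPS18A had 26.5, MRPS18C 5.47 and MRPS18B 3.003 CPM per kilobase of merged exons. With the median length of protein-coding transcripts the values were 42.4, 39.97 and 3.70 in the same order. The gap between MRPS18A and MRPS18C thus depends on the length used, whereas MRPS18B was the lowest by both lengths. MRPS18C overlaps exons of ABRAXAS1 and MRPS18A exons of RSPH9 on the annotation. The level of MRPS18B, 5.38 to 6.89 CPM in all libraries, carries counting intervals of its change that include 0 in every line.

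The 3 lines had close values for some members and distant values for others. Among genes with a mean of at least 5 CPM the smallest spread was that of MRPS27, a small-subunit protein with pentatricopeptide repeats, at -0.12, -0.12 and -0.13 in MHCC97L, MHCC97H and HCCLM3. MRPS11 (0.10, 0.08 and 0.07), MRPL36 (0.08, 0.03 and 0.04), MRPS5 (0.18, 0.18 and 0.13) and MRPS35 (0.08, 0.01 and 0.05) followed. The order of these 5 is within counting error.

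Among the same genes the largest spread was that of MRPS15, a primary small-subunit protein that binds ribosomal RNA. It measured 53.5, 59.0 and 37.1 CPM in the MHCC97L, MHCC97H and HCCLM3 controls and 57.1, 48.15 and 49.3 CPM after TGF-β1. Its log2 changes were 0.09, -0.29 and 0.41 in the same order of lines, and the counting intervals of the last 2 exclude 0 on opposite sides. MRPL18 (0.08, -0.23 and 0.30) and MRPL40 (0.04, -0.15 and 0.30) had the same order of lines, whereas MRPS28 (0.26, 0.35 and -0.14) and MRPS24 had HCCLM3 lowest. With 1 library per line and condition these differences between lines have no test. The HCCLM3 control was the lowest of the 6 libraries for MRPS15, MRPL18 and MRPL40.

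Across the 77 members without MRPL45, changes in MHCC97L and MHCC97H correlated at 0.625 (Pearson, a description across genes), those in MHCC97L and HCCLM3 at 0.333, and those in MHCC97H and HCCLM3 at -0.126. Over all tested genes the values were 0.426, 0.284 and 0.254. Each pair of lines shares no library, and genes are not independent replicates. MRPL45 alone moved the members' values to 0.073, 0.239 and -0.911.

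**Figure D3:**
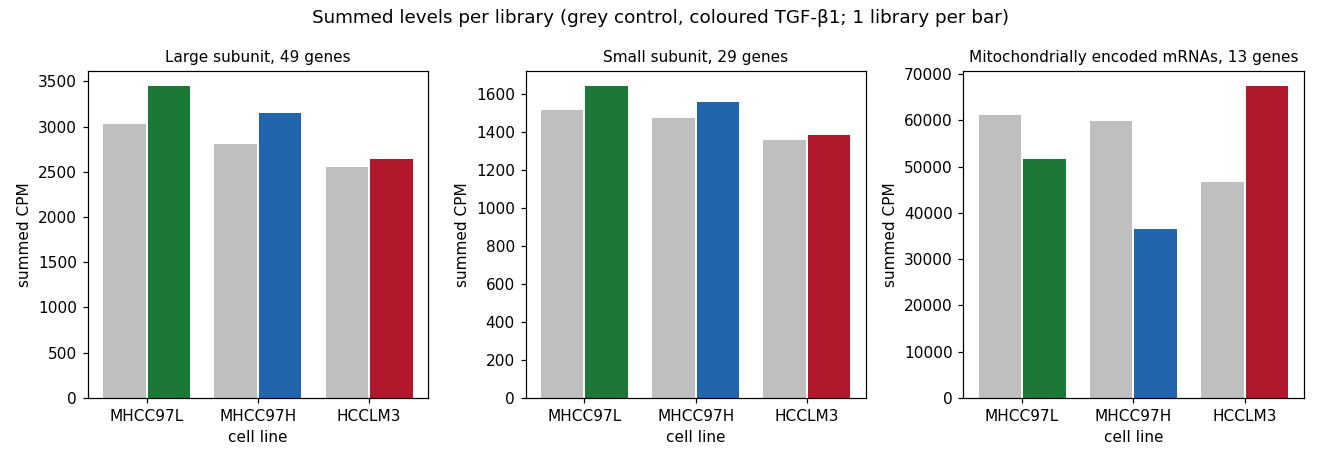
Summed CPM per library of the 49 large-subunit genes, the 29 small-subunit genes and the 13 mitochondrially encoded mRNAs, with grey bars for controls and coloured bars for TGF-β1, 1 library per bar. The nuclear sums are higher after TGF-β1 in each line, by 3.74% and 2.06% in HCCLM3 (scaled by library totals they are -1.07% and -2.67% there), while the mitochondrial mRNAs are lower in MHCC97L and MHCC97H and higher in HCCLM3.

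Other genes of mitochondrial translation were read from lists chosen by role. Of 5 mitoribosomal proteins without an MRP symbol, 2 rose after TGF-β1. AURKAIP1, a small-subunit protein, went from 77.96, 68.55 and 70.0 CPM to 106.8, 106.3 and 84.2 CPM (0.45, SE 0.082; edgeR adjusted p = 0.00939), and GADD45GIP1, a large-subunit protein, from 90.1, 76.5 and 82.0 CPM to 114.2, 103.2 and 93.9 CPM (0.32, SE 0.072; edgeR adjusted p = 0.0203). In both, every TGF-β1 library lay above every control.

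Of 27 assembly factors 2 rose and 1 fell (11.1%, against 14.4% of all tested genes). MALSU1, which keeps the large subunit from joining too early, went from 50.55, 56.6 and 70.6 CPM to 73.7, 81.05 and 92.5 CPM (0.48; edgeR adjusted p = 0.00313). RPUSD3, a pseudouridine synthase family member needed for the large ribosomal RNA, rose by 0.34 (edgeR adjusted p = 0.0218), and MTERF4, which guides an RNA methyltransferase to the large subunit, fell by 0.48 (edgeR adjusted p = 0.0110). The list's median was 0.03.

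None of 16 translation factors passed in edgeR, DESeq2 or limma-voom, with 3 at an unadjusted p under 0.05 in edgeR and a median of -0.04. Among 16 tested mitochondrial aminoacyl-tRNA synthetases, MARS2, the methionyl enzyme, fell by 0.49 (edgeR adjusted p = 0.0231) and the median was -0.07. Of 12 tested regulators of mitochondrial transcription and biogenesis 1 rose and 2 fell: POLRMT, the mitochondrial RNA polymerase, rose by 0.45 (edgeR adjusted p = 0.0109), PPARGC1B, a coactivator of mitochondrial genes, fell by 0.92 (edgeR adjusted p = 0.00164), and MYC fell by 0.26 (edgeR adjusted p = 0.0440). For comparison, 10 of 84 tested cytosolic ribosomal protein genes rose (11.9%), none fell, and their median was 0.13.

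The mRNAs that this ribosome translates had opposite signs between lines. Summed over the 13 mitochondrially encoded mRNAs, the level was 15.6% lower after TGF-β1 in MHCC97L and 38.9% lower in MHCC97H, and 44.1% higher in HCCLM3. All 13 had the sign of the sum in each line. None passed in the fit across lines in edgeR, DESeq2 or limma-voom, and none had an unadjusted p under 0.05 in edgeR. The sources used here do not say how RNA was selected for sequencing.

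The second question is how the lines differ. MHCC97H and MHCC97L gave no member past the threshold. In edgeR 0 of 78 members passed, against 2.45% of all tested genes (1.37% higher and 1.09% lower). At an unadjusted p under 0.05 there were 5 members (6.41%, against 15.8% of all tested genes). DESeq2 and limma-voom called 0 members, against 2.3% and 1.76% of all tested genes. The median difference, MHCC97H minus MHCC97L, was -0.08 against 0.001 over all genes, and 60 of 78 were lower in MHCC97H. Without the HCCLM3 TGF-β1 library edgeR called 3 members lower in MHCC97H (3.85%) and 10.3% of all tested genes, and without the HCCLM3 control 2 members (2.56%) and 8.86% of all.

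HCCLM3 had less of many of these transcripts than either MHCC97 line. Against MHCC97L, 26 of 78 members were lower (33.3%, against 14.8% of all tested genes) and 1 was higher (15% of all tested genes). Against MHCC97H, 16 were lower (20.5%, against 13.9%) and 2 were higher (13.3% of all tested genes). Median differences were -0.21 and -0.13, against -0.003 and 0.001 over all genes. The large subunit gave 19 of 49 and 11 of 49 lower, and the small subunit 7 of 29 and 5 of 29. Both comparisons use the same HCCLM3 libraries, so their values are set side by side and are not independent.

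The count against MHCC97L depends on the MHCC97L libraries. It was 6 without the MHCC97L TGF-β1 library (7.69%, against 14.2% of all tested genes) and 8 without the MHCC97L control (10.3%, against 14.4%). It was 15 in DESeq2 (19.2%, against 22.1%) and 6 with the treatment term dropped (7.69%, against 12.6%), and all of these members were lower. In these 4 alternatives the members' share called in either direction was below that of all genes, whereas with all libraries in edgeR it was 34.6% against 29.8%. The shares of all genes under the alternatives in this paragraph pool genes higher and lower. They are thus no background for the lower members alone, and the share of all genes that was lower was not counted there. Against MHCC97H the count was 10 without the MHCC97L TGF-β1 library or without the MHCC97L control (12.8%, against 21.5% and 21% of all tested genes) and 3 with the treatment term dropped (3.85%, against 10.2%). Counted without a test, both HCCLM3 libraries lay below all 4 MHCC97 libraries for 35 of 78 members (44.9%, against 20.3% of all tested genes) and above all 4 for 5 (6.41%, against 19.5%), namely MRPL32, MRPL44, MRPS22, MRPS25 and MRPS30.

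**Figure D4:**
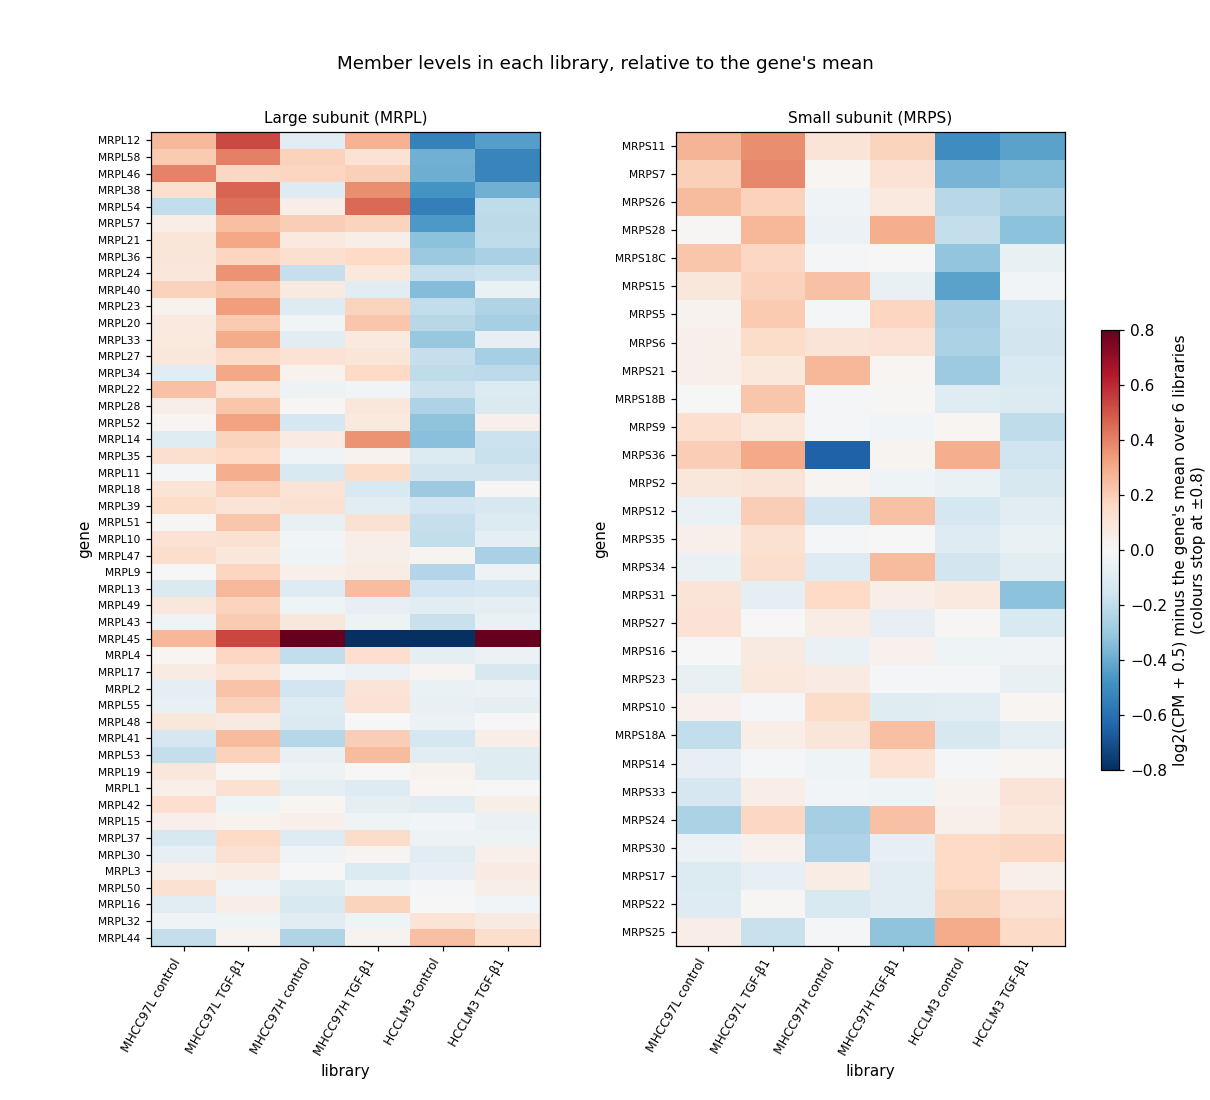
Level of each gene in each of the 6 libraries as log2(CPM + 0.5) minus that gene's mean over the libraries, with large-subunit genes on the left and small-subunit genes on the right. Blue cells gather in the HCCLM3 columns, most at MRPL12, MRPL58, MRPL46, MRPL38, MRPL54 and MRPS11, and red HCCLM3 cells appear at the bottom rows such as MRPS25 and MRPL44; the MRPL45 row holds the 2 libraries at 0.

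MRPL12 measured 319.7 and 386.0 CPM in the MHCC97L control and TGF-β1 libraries, 252.0 and 324.8 in MHCC97H and 183.9 and 196.7 in HCCLM3. Both HCCLM3 libraries lay below the other 4, with a log2 difference of -0.88 against MHCC97L (SE 0.088; edgeR adjusted p = 0.000129) and -0.59 against MHCC97H (SE 0.088; edgeR adjusted p = 0.00133). MRPS11, a small-subunit protein on the platform that cradles the mRNA, measured 81.1 and 86.8 CPM in MHCC97L, 71.9 and 75.9 in MHCC97H and 47.4 and 49.7 in HCCLM3. In HCCLM3 it was lower by a fitted log2 difference of -0.79 against MHCC97L (edgeR adjusted p = 0.000151) and -0.61 against MHCC97H (edgeR adjusted p = 0.000723).

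MRPL46, whose gene faces MRPS11, measured 28.1 and 23.8 CPM in MHCC97L, 24.0 and 24.3 in MHCC97H and 16.0 and 14.6 in HCCLM3 (log2 differences -0.76 and -0.66; edgeR adjusted p = 0.00104 and 0.00252). MRPL58, a peptide release factor built into the large subunit that frees stalled ribosomes, measured 67.8 and 77.4, 66.6 and 63.4, and 44.7 and 40.4 CPM in the same order (-0.77 and -0.61; edgeR adjusted p = 0.000602 and 0.00239). In both genes the HCCLM3 libraries lay apart from the other 4. MRPL38, with CPM given above, differed by -0.73 and -0.57 (edgeR adjusted p = 0.000801 and 0.00328), and MRPS7, a small-subunit protein of the head, by -0.65 and -0.42 (edgeR adjusted p = 0.000434 and 0.00477). MRPS7 measured 158.9 and 181.6 CPM in MHCC97L, 140.5 and 150.3 in MHCC97H and 107.3 and 109.8 in HCCLM3.

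MRPL54 was the member with the largest fitted rise after TGF-β1 and was also lower in HCCLM3, by log2 differences of -0.53 against MHCC97L (edgeR adjusted p = 0.0152) and -0.66 against MHCC97H (edgeR adjusted p = 0.00599). After TGF-β1 the HCCLM3 library, at 10.51 CPM, was close to the untreated MHCC97L library at 10.6. With the treatment term dropped, the calls of MRPL54, MRPL12 and MRPL38 against MHCC97H and of MRPL38 against MHCC97L were lost.

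The other way, MRPS25 was higher in HCCLM3, with 39.2 and 35.4 CPM against 32.9 and 28.0 in MHCC97L and 31.6 and 25.3 in MHCC97H. Its log2 differences were 0.30 (SE 0.095; edgeR adjusted p = 0.0450) and 0.40 (SE 0.096; edgeR adjusted p = 0.0145). MRPS30 was higher in HCCLM3 than in MHCC97H, by 0.32 (SE 0.095; edgeR adjusted p = 0.0348), with 37.7 and 37.8 CPM in HCCLM3, 28.3 and 32.1 in MHCC97H and 32.6 and 34.6 in MHCC97L. MRPS25 lost its call under 7 of 14 alternatives against MHCC97L and under 5 of 14 against MHCC97H (edgeR adjusted p of 0.186 with the treatment term dropped), and MRPS30 under 9 of 14. MRPS25 shares exonic bases with NR2C2.

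The 6 members with the lowest values in HCCLM3 against MHCC97L fall in a pair of genome regions. MRPL58, MRPS7, MRPL38 and MRPL12 start at 75012670, 75261674, 75898643 and 81703357 on chromosome 17, and MRPL46 and MRPS11 at 88459476 and 88467453 on chromosome 15 (GENCODE 29, GRCh38, lower coordinate of the gene). Tested genes within 5 Mb of the chromosome 17 members had median differences, HCCLM3 minus MHCC97L, of -0.26 to -0.30, and 44.3% to 45.2% of them were lower, against 14.8% of all genes. Within 5 Mb of the chromosome 15 pair the median was -0.38, 53.7% of genes were lower, and all of chromosome 15 had a median of -0.49. Each of the 6 members was lower than its neighbours' median, but they had been picked as the lowest members in this comparison. That choice favours such a result, so no conclusion is drawn from it. The regions were also named after values were seen, so the shares of lower neighbours are descriptions. DNA copy number was not measured here.

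Without these 6 members, 20 of the other 72 (27.8%) were still lower than in MHCC97L and 10 (13.9%) were lower than in MHCC97H. All 6 had passed as lower in both comparisons, so leaving them out had to reduce both counts. The second share equals the 13.9% of all tested genes, but that background still holds the other genes of these regions. Over the 78 members, the difference of a gene and the median of its neighbours correlated at 0.577 against MHCC97L and 0.565 against MHCC97H (Pearson, a description; neighbours share libraries with the member and near members share neighbours). A member's difference minus its neighbours' median had a median of -0.18 against MHCC97L and -0.099 against MHCC97H, so members were mostly lower than their neighbours. Among the members unlike their neighbours was MRPL54 on chromosome 19, whose 190 neighbours had a median of -0.001 against MHCC97L. Another was MRPS25 on chromosome 3, which was higher while its 44 neighbours had a median of -0.43. For the divergent partners the pattern varied: SARS2 was lower with a log2 difference of -0.51 against MHCC97L (edgeR adjusted p = 0.0176) beside -0.18 for MRPS12, whereas EME1, at MRPL27, had 0.24 (edgeR adjusted p = 0.161) beside -0.35 for MRPL27.

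**Figure D5:**
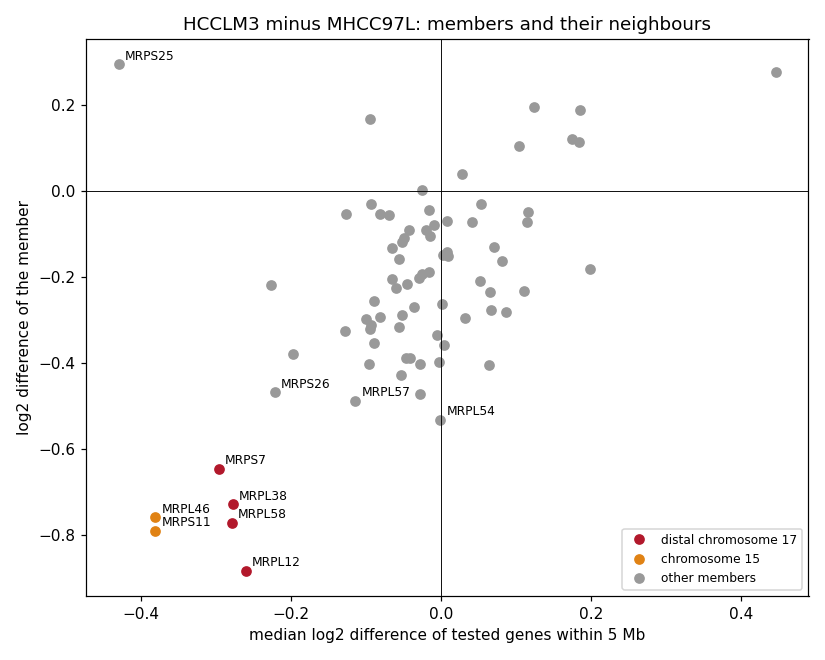
Log2 difference of each member, HCCLM3 minus MHCC97L, against the median difference of tested genes within 5 Mb of it, with the 4 members of distal chromosome 17 in red, the 2 of chromosome 15 in orange and the other members in grey. The 6 coloured points are the lowest and lie over neighbourhoods with medians from -0.26 to -0.38, MRPL54 lies over a neighbourhood near 0 and MRPS25 stands at the upper left.

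Among pathway genes, none of the 5 mitoribosomal proteins without an MRP symbol passed against MHCC97L in edgeR (3 at an unadjusted p under 0.05; 0 in DESeq2 and in limma-voom), with a median of -0.21. Of 27 assembly factors 5 were higher and 3 lower in HCCLM3 than in MHCC97L (29.6% in either direction, against 29.8% of all tested genes). They were led by RPUSD3 at -1.39 (edgeR adjusted p = 1.90e-05) and DHX30, an RNA helicase of mitochondrial RNA granules, at 0.56 (edgeR adjusted p = 0.00207). Of 16 translation factors 4 were lower than in MHCC97L (25%, against 14.8% of all tested genes): SLIRP, MTFMT, MRRF and MTIF3. None was higher, where 15% of all tested genes were. Of 84 cytosolic ribosomal protein genes 17 were lower than in MHCC97L (20.2%) and 5 higher, with a median of -0.17. Against MHCC97H the cytosolic list gave 5 lower and 6 higher, with a median of -0.01. In that comparison 0 of the 5 mitoribosomal proteins passed in edgeR, DESeq2 or limma-voom (1 at an unadjusted p under 0.05 in edgeR, median -0.02). There 2 assembly factors were higher and 3 lower, and the translation factors MTIF3 and MTFMT were lower. The shares called were 18.5% of assembly factors and 12.5% of translation factors, against 27.2% of all tested genes.

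Across the 6 libraries, the mean log2 CPM of the members without MRPL45 ran from 5.27 in the HCCLM3 control and 5.30 in its TGF-β1 library through 5.39 and 5.48 in MHCC97H to 5.45 and 5.58 in MHCC97L. Correlated with this mean over the 6 libraries, 56 of the 77 members had r above 0.5 and 9 were below 0, among them MRPS25 (-0.850), MRPS17 (-0.828), MRPL32 (-0.701) and MRPS22 (-0.601). Non-member genes most like it were RPP25L (0.997), C11orf98 (0.994) and RCC1 (0.994). With MRPL45 in the mean, which follows its 2 zeros, they were COX6C (0.995), LUC7L3 (0.993) and NRBP1 (0.992), so these names depend on 1 gene. The libraries of a line share that line, and r is a description.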

How the data were processed

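RNA from 3 hepatocellular carcinoma lines, control and TGF-β1, was sequenced as 6 libraries. The authors deposited expected counts per gene with Ensembl IDs; per the submitters' processing notes, TopHat2 2.1.1, Cufflinks 2.2.1, Cuffdiff 1.3.0 and hg38 were used, without roles. How the counts were made, with or without strand, is not stated in these sources. IDs with no symbol (2.01% of counts) were tested too.

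Counts were rounded (at most 134 counts of a library's total) and tested in R 4.3.3 with edgeR 4.0.16: filterByExpr by treatment (14176 genes), TMM factors of 0.972 to 1.03, the robust quasi-likelihood F test with line and treatment as terms, and Benjamini-Hochberg adjustment over all tested genes at 0.05. Line contrasts came from the same fit, with the 2 conditions of a line as its libraries. DESeq2 1.42.0 and limma 3.58.1 were alternatives. CPM are counts scaled by TMM, and changes within a line are log2 differences with a prior count of 2 and 95% exact conditional binomial intervals. Reads carried no molecular identifiers as far as the labels say, so intervals and the floor of 3 counts (0.129 to 0.162 CPM) cover counting error only.

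The line pairs the libraries, per the labels. Same-line libraries deviated together from the means of their conditions, with correlations of 0.587 in MHCC97L, 0.456 in MHCC97H and 0.728 in HCCLM3. On simulated counts the TGF-β1 fit called 81% of genes changed 1.5-fold and 96.0% of those changed 2-fold. Every simulated gene had the same spread beyond counting error and the same fold in each line. The simulation thus cannot show the recovery of genes whose response differs between lines. Smaller folds, such as those of the called members, were not simulated. The members, gene lists and tests were chosen with earlier results of these data known. Named in the text are members past the threshold (for TGF-β1, at least 8 by p; for lines, up to 6 per direction by size), the 6 highest and 6 lowest per kilobase, the stalk and MRPS18 genes, the 5 with the largest and smallest spread over lines, the 3 non-members most like the mean, and list genes past the threshold. Genes named by a partner gene, a position or a sign shared by all lines, and the comparisons without MRPL45 or without the chromosome 15 and 17 members, were chosen after values were seen. Figures were drawn with matplotlib 3.10.9.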

Additional observations from a re-analysis of the deposited data

Results flagged for a closer look

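For 7 members the counting interval of the change after TGF-β1 lay above 0 in 1 line and below 0 in another. MRPL45, with its libraries at 0, also met this rule and was left out of the 7. The rule was not applied to all tested genes, so the count has no background share. MRPS15 was 0.412 on the log2 scale in HCCLM3 and -0.292 in MHCC97H, MRPL18 0.301 and -0.231, MRPS21 0.166 and -0.248, and MRPL3 0.132 and -0.112 in the same lines. MRPL42 was 0.135 in HCCLM3 and -0.169 in MHCC97L. MRPL43 was 0.244 in MHCC97L and -0.135 in MHCC97H, and MRPL58 0.191 in MHCC97L and -0.147 in HCCLM3. Each value compares 1 library with 1 library, so the difference between lines was not tested.

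The summed mitochondrially encoded mRNAs changed by -0.245 in MHCC97L and -0.711 in MHCC97H and by 0.527 in HCCLM3 on the log2 scale, with all 13 genes on the side of the sum in each line. This difference was not tested either. MRPS15, MRPL18, MRPS21 and MRPL3 had the same signs in HCCLM3 and MHCC97H as those mRNAs, but the rule had picked them for opposite signs between lines. In MHCC97L they had the other sign, at 0.095, 0.077, 0.043 and 0.020 against -0.245, with counting intervals that include 0. Whether the values are linked was not tested.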

How the results depend on the processing

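The TGF-β1 count of 4 members was 4 in DESeq2 (2 of them shared) and in limma-voom (all 4 shared), 6 with RLE scaling, 3 with library totals or no count filter, 2 with upper-quartile scaling and 2 among the 18 members with whole counts and no overlapping gene. Without the replicate block, that is with the cell line left out of the model, it was 0 in edgeR (2 at an unadjusted p under 0.05), and 10 genes were called in all. Leaving out 1 line at a time gave 0 to 21. Of all tested genes 14.4% were called in the main fit, 10% in DESeq2, 14.5% with RLE scaling and 15.3% with library totals. With 1 line left out 4.29% to 27.7% of all tested genes were called.

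MHCC97H against MHCC97L gave 0 members, 2 with only these lines in the fit and 0 to 3 with 1 library left out. HCCLM3 against MHCC97L gave 27, 15 in DESeq2, 6 with the treatment term dropped and 6 to 30 with 1 library left out. HCCLM3 against MHCC97H gave 18, 10 with only these lines in the fit, 3 with the treatment term dropped and 10 to 23 with 1 library left out. With 1 library left out, a lone library was assumed to vary like the others. The share of all tested genes called moved with the settings too. For HCCLM3 against MHCC97L it was 29.8%, 22.1% in DESeq2 and 12.6% with the treatment term dropped. For HCCLM3 against MHCC97H it was 27.2%, 21.6% with only these lines and 10.2% with the treatment term dropped. For MHCC97H against MHCC97L it was 2.45%, and 9.04% with only these lines. The changes in count are thus not particular to the members, and their cause was not tested. Differences of single members were followed under the alternatives only for members named by small p or large difference. None of these changed sign, and members with differences near 0 were not followed. The summed change in HCCLM3 went from 3.16% to -1.63% by library totals. The members' median change after TGF-β1 went from 0.076 to 0.026 by library totals and 0.045 by the upper quartile, where the SD over lines was 0.0523. Depth limits MRPS18B, MRPS31, MRPS36 and MRPL45, all under 7 CPM.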
